A study of Mus musculus with 41 samples.

Results

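Bcl2 family genes were examined in mouse malignant mesothelioma, as the rows of 10 named genes in a table of RNA read counts that holds 27197 genes. The 10 genes were Bcl2, Bcl2l1, Bcl2l2, and Mcl1, which code for proteins that keep cells alive, Bak1, which codes for a protein that perforates mitochondria, and Bcl2l11, Bid, Bad, Pmaip1, and Bmf, which code for proteins that trigger death. All 10 were detected in every library and tested. They were named as a set of survival genes, but 6 of the 10 code for proteins that promote cell death. The tumors came from mice in which floxed alleles were deleted in the pleural lining by intrathoracic injection of adenovirus carrying Cre driven by the ubiquitous CMV promoter, so deletion was not restricted to mesothelial cells by the promoter. The labels give the genotype Bap1-/-;Nf2-/-;Cdkn2ab-/- for BNC and Nf2-/-;Cdkn2ab-/- for NC, so loss of Nf2 and Cdkn2ab was shared by every sample and only loss of Bap1 set BNC apart. RNA had been sequenced from early-passage cultures of such tumors, of which JB81, JB91, and JB97 were BNC and 3 were NC (JB84, JB87, JB93). RNA of 8 tumors was also read (B1, B2, B13, B14, B19, B27, B28, and B45).

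The Bcl2 family controls the mitochondrial route to apoptosis. BAX and BAK open pores in the outer mitochondrial membrane, which releases cytochrome c and activates caspases. BCL-2, BCL-XL (Bcl2l1), BCL-W (Bcl2l2), and MCL-1 hold these effectors in check, and the BH3-only proteins such as BIM (Bcl2l11), BID, BAD, NOXA (Pmaip1), and BMF bind the protectors or the effectors and tip the balance toward death. NOXA binds mainly MCL-1, and its gene is a target of p53. BCL-XL and MCL-1 are well known as survival proteins of mesothelioma cells.

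Reads were counted at 20231284 to 23936922 per BNC line, 12377675 to 18999233 per NC line, and 8158740 to 21851974 per tumor. The lines were not equally distant from one another. JB81 and JB91 differed by more than 2-fold in 5 of 10511 genes and JB84 and JB93 in 8 of 10545, whereas JB97 differed from JB81 in 1572 of 10631 genes and JB87 from JB84 in 2471 of 10393. JB97 and JB87, of different genotypes, were closer to each other (1357 of 10404 genes) than either was to the lines of its own genotype. The edgeR coefficient of variation beyond sampling noise was 0.0386 for JB81 and JB91 and 0.0578 for JB84 and JB93. For JB97 and JB87, the next closest lines, it was 0.402. Within both close pairs the counts differed by more than sampling noise. The lines of each close pair also carried different prefixes in the column heads, so this excess cannot show that they are independent. The sources do not say whether a pair came from the same mouse. Each line was kept as a sample, as the labels list them, and some results are also given with each close pair summed. With the pairs summed, 0 of 12859 genes had an edgeR adjusted p under 0.05 between BNC and NC lines. Every edgeR adjusted p under 0.05 given here for that comparison therefore comes from fits without this summing. The 8 mesothelial markers (such as Msln, Krt8, and Krt18) summed to 135 to 686 CPM (the usual read counts scaled to library depth after TMM normalization) in BNC lines and 2300 to 3210 in NC lines, and Krt18 was at 0 to 0.978 CPM in BNC lines and 58.9 to 156 in NC lines. Wt1, another mesothelial marker, was present in every line at 76.7 to 132 CPM. Fibroblast markers summed to 3860 to 6970 CPM in BNC and 732 to 4020 in NC lines. Most of each sum was Col1a1, at 3590 to 6760 CPM in BNC and 705 to 3940 in NC lines. Col1a1, Pdgfra, and Dcn overlapped between the groups, and Pdgfrb did not (173 to 178 CPM in BNC and 2.3 to 23.6 in NC lines). None of the lines had more than 1 count of the leukocyte gene Ptprc. Of the tumors, B1 was the shallowest, with 38.5% of its counts on Gm42418 and Lars2, loci known to collect reads of ribosomal RNA, against 0.416% to 10.8% in the others. B2 held transcripts of lung epithelium, with 4.81% of its counts on Scgb1a1 and Sftpc against at most 0.00705% in the others. Bap1 itself was lower in BNC lines (38.0 to 44.1 CPM) than in NC lines (60.6 to 64.2 CPM). The log2 fold change was -0.57 (edgeR adjusted p = 0.039 with the lines kept apart, and not under 0.05 with the close pairs summed). The count of Bap1 covers exons outside the floxed part. Nf2 did not pass the test (-0.09, adjusted p = 0.734), and Cdkn2a and Cdkn2b had at most 12 and 1 counts in any line.

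Promoter windows from RefSeq (GRCm38.p6) were examined for 9 of the 10 genes. Pmaip1 was not in the set of windows used, so its promoter was not examined. The windows of Mcl1, Bmf, and Bcl2l1 are shown because these were the members that differed most clearly between tumors and lines. Each covers 250 bases upstream of the outermost annotated start on the gene's own strand, at chr3:95658471-95658720 (plus strand), chr2:118549687-118549936 (minus strand), and chr2:152831729-152831978 (minus strand). Capitals mark CpG dinucleotides.
Mcl1: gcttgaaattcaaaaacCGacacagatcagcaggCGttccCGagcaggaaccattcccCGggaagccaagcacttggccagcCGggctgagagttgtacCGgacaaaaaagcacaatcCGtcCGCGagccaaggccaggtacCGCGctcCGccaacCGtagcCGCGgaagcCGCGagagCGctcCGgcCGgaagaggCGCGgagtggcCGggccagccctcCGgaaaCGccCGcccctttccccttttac
Bmf: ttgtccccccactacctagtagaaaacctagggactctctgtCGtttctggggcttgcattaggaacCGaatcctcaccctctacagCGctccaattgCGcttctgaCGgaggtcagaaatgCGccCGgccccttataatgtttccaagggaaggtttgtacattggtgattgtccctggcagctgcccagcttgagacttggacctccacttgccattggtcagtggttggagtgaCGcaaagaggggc
Bcl2l1: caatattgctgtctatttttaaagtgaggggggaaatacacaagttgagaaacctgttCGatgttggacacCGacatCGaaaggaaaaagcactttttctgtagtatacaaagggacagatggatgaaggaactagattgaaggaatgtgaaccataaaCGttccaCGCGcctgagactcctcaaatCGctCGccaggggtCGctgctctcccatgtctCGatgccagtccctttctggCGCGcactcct
The window of Mcl1 held 26 CpG, that of Bcl2l1 12, and that of Bmf 8, against a median of 6 over 32851 promoter windows. Over the 15 annotated starts of the 9 genes the number ran from 0 at an inner start of Bcl2l1 to 36 at Bcl2. GGGCGG, the GC box, was searched on both strands and found at 7 of the 15 starts, in 6 of the 9 genes, and in 32.7% of the 32851 windows. The window of Mcl1 held 1 and that of Bcl2 7, and none was found at the 3 starts of Bcl2l1 or of Bmf. CCAAT was found at 5 of the 15 starts and in 33.8% of the 32851 windows. TATAAA was found at 0 and in 12.4%, TGACGTCA at 0 and in 1.55%, and CACGTG at 0 and in 6.02%.

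Mcl1 was the most abundant of the 10 transcripts in every line when levels were divided by exon length. It had a mean of 62.4 ± 5.34 CPM per kb (SD, n = 6 lines), and its lowest line, at 56.7, was above the highest line of any other member. Bak1 followed with 42.9 ± 2.74 CPM per kb and Bcl2l1 with 34.5 ± 13.3, and these neighbors did not separate, since Bak1 was above Bcl2l1 in 4 of the 6 lines. Pmaip1 (12.7 ± 10.3), Bid (10.7 ± 4.32), Bad (10.4 ± 1.05), and Bcl2l2 (9.55 ± 2.54) had overlapping ranges of CPM per kb. Bcl2l11 (2.7 ± 0.387) and Bcl2 (2.51 ± 0.409) were near each other, and Pmaip1 reached down to this level in JB81 and JB91, at 2.56 and 2.1 CPM per kb. Bmf was lowest in every line, with 0.4 ± 0.124 CPM per kb. Bcl2, the founding gene of the family, was therefore at a low level in all 6 lines.

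The members differed widely in how much they varied from line to line. The highest line exceeded the lowest 1.21-fold for Bak1, 1.26-fold for Mcl1, and 1.32-fold for Bad. For Bcl2l1 this range was 2.59-fold, for Bid 2.81-fold, and for Pmaip1 11.7-fold. The genes with the steadiest level were thus the protector with the most abundant transcript, the only effector gene among the members, and 1 BH3-only gene.

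**Figure D1:**
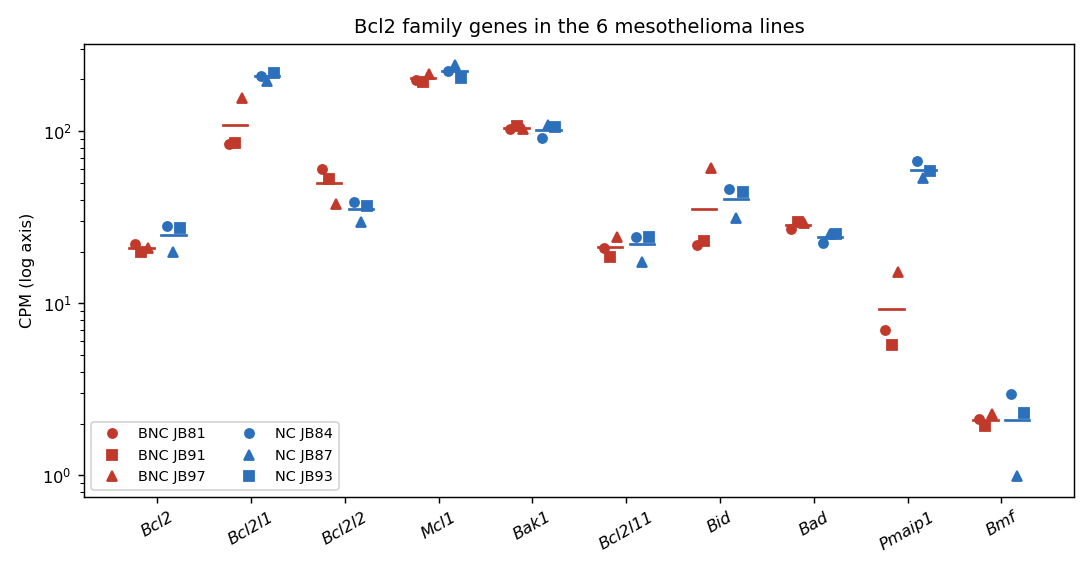
Level of the 10 Bcl2 family genes in the 3 BNC and 3 NC lines. The y axis is CPM on a log scale, each symbol is 1 line, and short bars are group means. Pmaip1 was at 5.74 to 15.2 CPM in BNC and 53.7 to 67.3 CPM in NC lines. Groups overlapped for 7 of the 10 genes and did not for 3, nor for 41.5% of all genes tested.

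To determine whether loss of Bap1 went with a change in these genes, BNC lines were compared with NC lines over all 12376 genes that passed the filter on low counts. Pmaip1 was the member that differed most. It had 158, 130, and 296 counts in JB81, JB91, and JB97, and 993, 652, and 1223 counts in JB84, JB87, and JB93, although the BNC libraries were the deeper ones. These counts correspond to 6.99, 5.74, and 15.2 CPM in BNC lines and 67.3, 53.7, and 58.9 CPM in NC lines. Every BNC line was below every NC line, with a mean of 9.32 ± 5.16 CPM against 59.9 ± 6.85 CPM (SD, n = 3 lines each). The log2 fold change was -2.69 (SE 0.41, 95% interval -3.68 to -1.7, edgeR adjusted p = 0.0167).

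Genes were called at an adjusted p under 0.01 with more than 2-fold change. By this rule 0 of the 10 members were called in edgeR, and 136 of all 12376 genes were, which is 1.1% (0.444% higher and 0.654% lower in BNC lines). At an unadjusted p under 0.05 there were 2 of the 10 (Pmaip1 and Bcl2l1), against 35.6% of all genes. At an adjusted p under 0.05 there was 1 of 10 members, Pmaip1, and 14.2% of all genes, or 8.45% in the lower direction. DESeq2 called Pmaip1 (-2.69, adjusted p = 1.37e-08) together with 14.7% of all genes.

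The adjusted p of Pmaip1 depended on which lines were kept. In edgeR it was 0.0946 without JB81, 0.0817 without JB91, 0.0831 without JB84, and 0.0816 without JB93, and it was 0.00215 without JB97 and 0.00869 without JB87. DESeq2 called Pmaip1 whichever line was left out, at an adjusted p of 3.2e-05 or less, with 1103 to 3751 of all genes called. With JB81 and JB91 summed and JB84 and JB93 summed, the log2 fold change was -2.43 and the edgeR adjusted p = 0.295. The direction was the same in every subset of lines compared without a test. JB81 and JB91 had a mean of 6.37 CPM against 63.1 for JB84 and JB93 (log2 difference -3.31), and JB97 had 15.2 against 53.7 for JB87 (-1.82). By the prefix of the column heads, JB81, JB84, and JB87 formed a set, and JB91, JB97, and JB93 another, and the sources do not say what the prefix stands for. Within the first set JB81 had 6.99 CPM against a mean of 60.5 for its NC lines, and within the second the BNC mean was 10.5 against 58.9 for JB93. With the prefix as a covariate the log2 fold change was -2.8 and the edgeR adjusted p = 0.0537. Of the 8 mesothelial markers, 5 (Msln, Krt8, Krt18, Krt19, and Pdpn) were also lower in every BNC line than in every NC line. The same held for 21.4% of all genes. With all 6 lines, 2 of the markers (Krt8 and Krt18) had an adjusted p under 0.05 in edgeR, and 8.45% of all genes were lower at that limit. With the close pairs summed, 0 of 12859 genes passed it. Wt1, Upk3b, and Lrrn4 overlapped. The part of these markers in the result for Pmaip1 was not tested.

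The genes whose levels followed Pmaip1 most closely over the 6 lines were Rfx3, a transcription factor of ciliated cells (Pearson's r = 0.9989 of log2 CPM), Tgfa, a ligand of the EGF receptor (r = 0.9988), and Bhlhe40, a transcriptional repressor (r = 0.9986). These values describe 6 lines that fall into 2 groups, and 755 of the other 12375 genes tested had an r over 0.95. Tgfa was at 10.5 to 17.5 CPM in BNC and 37.3 to 41.7 CPM in NC lines.

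Among the protectors, Bcl2l1 had the largest log2 fold change, and it did not pass the test. It was at 84.1, 84.9, and 155 CPM in JB81, JB91, and JB97 and at 210, 197, and 218 CPM in JB84, JB87, and JB93. All 3 BNC lines were below all 3 NC lines, and JB97 lay between the other BNC lines and the NC lines. The log2 fold change was -0.95 (SE 0.27, 95% interval -1.61 to -0.28, edgeR adjusted p = 0.0664). Without JB97 it was -1.3 and Bcl2l1 was called (edgeR adjusted p = 0.00483), whereas with the close pairs summed the adjusted p was 0.531. In DESeq2 the adjusted p was 0.0117 at a log2 fold change of -0.95, and 0.116 without JB81.

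Bcl2l2 was at 60.0, 52.6, and 37.9 CPM in BNC lines and 38.9, 29.5, and 36.8 CPM in NC lines. JB97 lay within the NC range, and the log2 fold change of 0.51 (SE 0.22) did not pass the test (edgeR adjusted p = 0.151). Without JB97 it was 0.69 (adjusted p = 0.0484). Mcl1 was at 199, 194, and 215 CPM in BNC and 223, 244, and 205 CPM in NC lines. The groups overlapped, and the 95% interval of its log2 fold change ran from -0.47 to 0.18 (edgeR adjusted p = 0.458). Bcl2 was at 19.8 to 22.0 CPM in BNC and 19.8 to 28 CPM in NC lines (log2 fold change -0.26, interval -0.72 to 0.21, edgeR adjusted p = 0.36). Without JB87 it was -0.38 (adjusted p = 0.0341). The 4 protectors had a median log2 fold change of -0.20, against -0.002 over all genes tested.

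The effector Bak1 had the smallest range over the 6 lines of the 10 genes. It was at 103, 107, and 103 CPM in BNC and 90.8, 109, and 106 CPM in NC lines, and the interval of its log2 fold change was -0.29 to 0.35 (edgeR adjusted p = 0.884). Its exons overlap those of Ggnbp1 on the other strand over 437 bases, and Ggnbp1 had 4 to 19 counts in the lines.

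Of the BH3-only genes other than Pmaip1, none passed at an adjusted p of 0.05. Bad, whose protein is held inactive by survival kinases, was at 27, 29.6, and 29.2 CPM in BNC and 22.5, 25.2, and 25.4 CPM in NC lines. These groups did not overlap, but the difference was small (log2 fold change 0.23, interval -0.11 to 0.57, edgeR adjusted p = 0.279). Groups without overlap were found for 3 of the 10 members and for 41.5% of all genes tested. Pmaip1 and Bcl2l1 were lower in BNC lines, as were 21.4% of all genes, and Bad was higher, as were 20.1%. Bcl2l11, which codes for BIM, was at 18.7 to 24.2 CPM in BNC and 17.4 to 24.4 CPM in NC lines (log2 fold change -0.05, interval -0.56 to 0.46, edgeR adjusted p = 0.889).

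Bid, whose protein links caspase-8 to mitochondria, was the member in which JB97 stood farthest from the other BNC lines. It was at 21.8, 23.1, and 61.2 CPM in JB81, JB91, and JB97 and at 46.0, 31.3, and 44.3 CPM in NC lines (log2 fold change -0.2, interval -1.29 to 0.89, edgeR adjusted p = 0.767). JB97 held the highest level of all 6 lines and JB81 and JB91 the lowest. Without JB97 the log2 fold change was -0.85 (edgeR adjusted p = 0.0491). Of the exon length of Bid, 17.7% is shared with Bcl2l13 on the other strand, which had 951 to 2639 counts. The strand setting of the counting is not given in the sources used here, so reads of the shared part cannot be assigned to either gene. The same holds for 20.5% of the exon length of Bad, shared with Gpr137 (116 to 490 counts) on the other strand. Bmf had 12 to 48 counts per line, at 1.94 to 2.26 CPM in BNC and 0.988 to 2.98 CPM in NC lines (interval of the log2 fold change -1.09 to 1.1, edgeR adjusted p = 0.995).

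**Figure D2:**
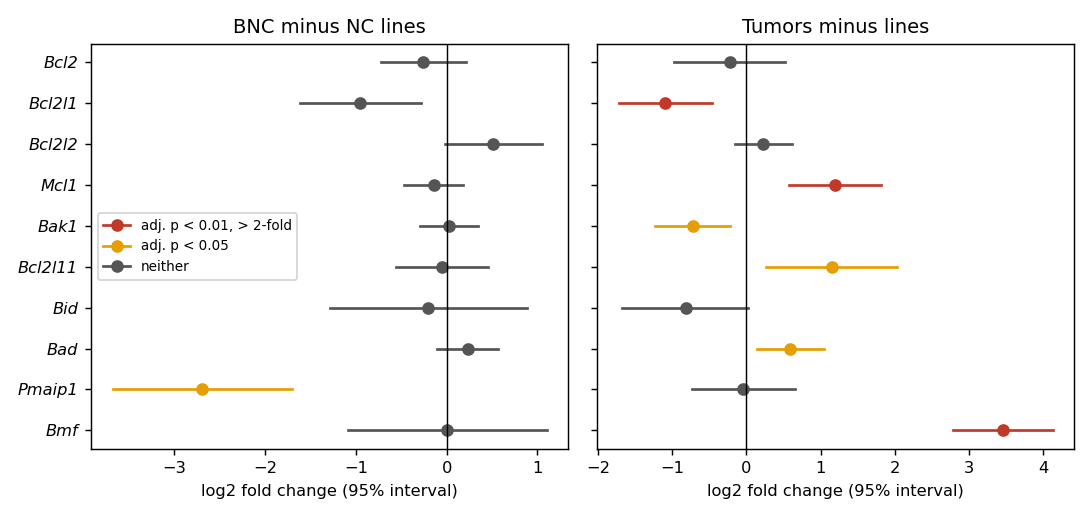
Log2 fold changes of the 10 genes with their 95% intervals from edgeR, for BNC minus NC lines (left) and tumors minus lines (right). Points are estimates, lines are intervals, and the x axes differ. On the left Pmaip1 (-2.69) is the only one of the 10 past an adjusted p of 0.05, as are 14.2% of all genes. With the close pairs summed, its edgeR adjusted p was 0.295. On the right Mcl1, Bmf, and Bcl2l1 are past 0.01 with more than 2-fold change, as are 40.2% of all genes.

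The balance within each class can be given as shares of the summed CPM per kb, in which the scaling between libraries cancels. Mcl1 made up 58.5% to 63.6% of the 4 protectors in BNC and 50.5% to 58.0% in NC lines. Bcl2l1 made up 19.8%, 20.8%, and 31.4% in BNC lines and 37.3%, 34.9%, and 40.0% in NC lines, and Bcl2l2 7.92% to 14.5% in BNC and 5.37% to 7.11% in NC lines. Among the 5 BH3-only genes Pmaip1 made up 9.19% to 14.8% in BNC and 45.5% to 49.3% in NC lines. Bad was the largest BH3-only share in JB81 and JB91 (47.4% and 50.6%), Bid in JB97 (45.8%), and Pmaip1 in each NC line. The ratio of Pmaip1 to Mcl1, the gene of its main binding partner, was 0.0371 to 0.0888 per kb in BNC and 0.275 to 0.377 in NC lines. These shares rest on the same counts as the tests above and were not tested again.

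**Figure D3:**
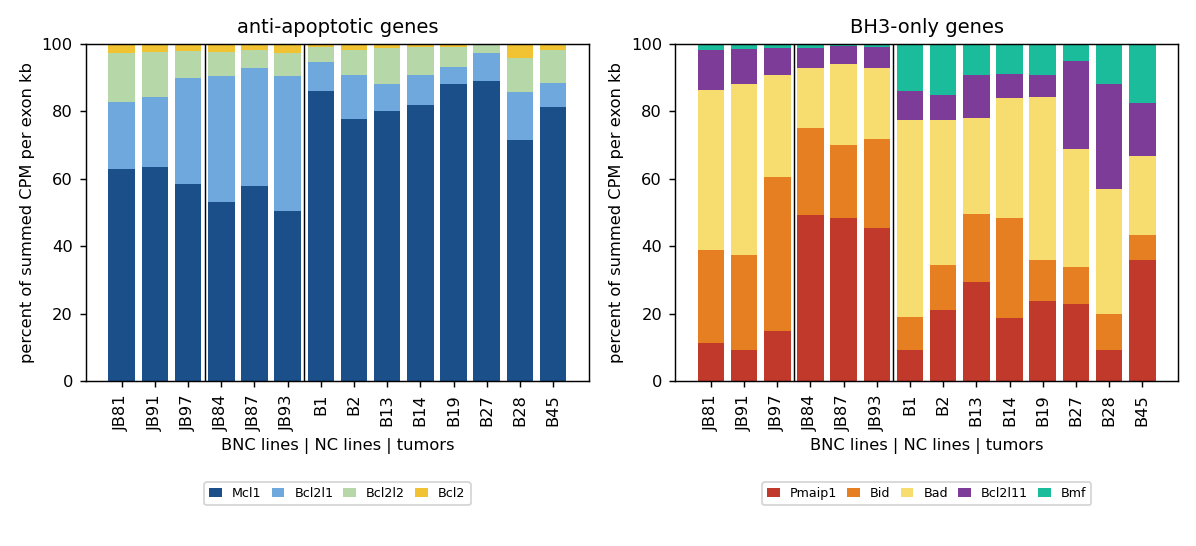
Composition of the 4 anti-apoptotic genes (left) and the 5 BH3-only genes (right) in each library. The y axis is the percent of summed CPM per exon kb, bars are libraries, and vertical lines divide BNC lines, NC lines, and tumors. Pmaip1 is 45.5% to 49.3% of the BH3-only sum in NC lines and 9.19% to 14.8% in BNC lines, and Mcl1 is 71.4% to 88.9% of the protector sum in tumors.

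The rest of the apoptotic pathway was followed in 5 lists of 55 genes, of which 46 were tested in the lines. In edgeR 0 of the 46 were called, 14 had an unadjusted p under 0.05 (35.6% of all genes), and 6 passed at an adjusted p under 0.05, 1 higher (5.78% of all genes) and 5 lower (8.45%) in BNC lines. DESeq2 called 3, Bnip3, Ddit3, and Pim1. The 6 depended on the lines kept. The number at an adjusted p under 0.05 was 0 without JB81, JB91, JB84, or JB93 in turn and with the close pairs summed, 15 without JB97, and 18 without JB87. The median log2 fold change of the 46 was -0.014.

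Of 15 other Bcl2 family genes 7 were tested, and 2 of these fell in BNC lines at an adjusted p under 0.05 with all 6 lines. Over all genes 8.45% fell at that limit. Bnip3l was at 38.0 to 41.6 CPM in BNC and 70.8 to 80.5 CPM in NC lines (log2 fold change -0.92, edgeR adjusted p = 0.0142), and Bnip3 at 10.8 to 13.3 and 23.5 to 36.1 CPM (-1.29, edgeR adjusted p = 0.0216). Both code for mitochondrial proteins known for hypoxia-induced mitophagy. Of the list of the apoptosome and executioners, Diablo, which codes for an antagonist of inhibitors of apoptosis, was at -0.51 (edgeR adjusted p = 0.205). None of the 5 inhibitors of apoptosis proteins passed, with Xiap at 0.38 (edgeR adjusted p = 0.136) and Birc3 at -2.13 (adjusted p = 0.291). None of the 8 tested genes of death receptor pathways passed either, with Tnfrsf1a at 0.38 (edgeR adjusted p = 0.099) and Fas at -1.08 (adjusted p = 0.155).

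Of the 13 regulators of the members, 1 rose and 2 fell in BNC lines at an adjusted p under 0.05, again with all 6 lines. Over all genes 5.78% rose and 8.45% fell at that limit. Pim1, a kinase that phosphorylates BAD, was at 11.3 to 12.2 CPM in BNC and 27.1 to 33.3 CPM in NC lines (-1.41, edgeR adjusted p = 0.0107). Usp9x, which codes for a deubiquitinase that stabilizes MCL-1, was at 302 to 332 CPM in BNC and 498 to 569 CPM in NC lines (-0.73, edgeR adjusted p = 0.0246). Ddit3, a transcription factor of the unfolded protein response known to raise Bcl2l11, was at 45.6 to 59.7 CPM in BNC and 18.8 to 32.4 CPM in NC lines (1.05, edgeR adjusted p = 0.0403). Trp53, whose product drives Pmaip1, did not pass the test, at 150 to 264 CPM in BNC and 94.5 to 255 CPM in NC lines (0.32, edgeR adjusted p = 0.602).

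The same genes were then read in the tumors. The labels list 5 BNC and 4 NC tumor RNA samples, but the heads of the tumor columns do not show the genotype. BNC and NC tumors were therefore not compared. With 8 tumor columns used, 1 of the 9 labelled tumors is missing, and statements on every tumor cover only these 8. A tumor is a mixture of cells, and in these bulk samples fewer cells of a type and less RNA per cell cannot be told apart. The 6 leukocyte markers summed to 204 to 592 CPM in tumors (393 at the median) and 2.7 to 4.91 CPM in lines. The 3 endothelial markers summed to 66.1 to 536 CPM in tumors, to 0.309 to 7.51 in BNC lines, and to 51.7 to 61.6 in NC lines. In NC lines nearly all of this sum was Kdr, at 51.6 to 61.5 CPM. Pecam1 and Cdh5 were at most 0.257 and 0.133 CPM in any line, and at least 21.8 and 20.2 CPM in tumors. These marker values of the lines are scaled over the lines alone. Other CPM values beside tumors are on a scale set over all 14 libraries. The median log2 fold change of all 15492 genes tested was 0.359 (0.224 with scaling to library size only and 0.418 in DESeq2) and differences of single genes stand relative to that shift. All tumors shared a column prefix that none of the lines had, so what the prefix stands for and being a tumor cannot be told apart.

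Mcl1 rose in tumors. It was at 435, 358, 339, 419, 464, 1020, 282, and 309 CPM in B1, B2, B13, B14, B19, B27, B28, and B45, with a median of 388, and at 179 to 226 CPM in the lines. The lowest tumor was above the highest line, and B27 was far above the other tumors. The log2 fold change was 1.2 (SE 0.29, edgeR adjusted p = 0.00268). Without B27 it was 0.92 (adjusted p = 0.000668), under the 2-fold limit. The adjusted p was also over 0.01 without JB81 (0.0116), JB91 (0.0119), or JB84 (0.0111) and with scaling to library size only (0.016), and without B1 and B2 it was 1.28 (adjusted p = 0.00532). Mcl1 made up 71.4% to 88.9% of the 4 protectors in tumors and at most 63.6% in lines.

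Bmf had the largest difference of the 10 genes. It was at 22.3, 30.5, 16.9, 22.3, 16.2, 12, 24.9, and 27.5 CPM in the 8 tumors in the order above and at 0.915 to 2.73 CPM in the lines. Every tumor was more than 4-fold above the highest line. The log2 fold change was 3.46 (SE 0.31, edgeR adjusted p = 1.57e-06), with a range of 3.28 to 3.6 over all settings tried. BMF is a BH3-only protein tied to the cytoskeleton that is freed when cells detach. Of the markers of other cells, 6 of 6 leukocyte, 2 of 3 endothelial, and 3 of 4 fibroblast genes were also called higher in tumors. So were 2 of the 8 mesothelial markers and 28.2% of all genes. The part of any of these markers in the results for Bmf and Mcl1 was not tested.

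Bcl2l1 fell in tumors. It was at 34.1 to 131 CPM, with a median of 59.7, against 77.6 to 202 CPM in lines. The tumors B2 and B27 overlapped the range of the lines, and the log2 fold change was -1.09 (SE 0.3, edgeR adjusted p = 0.00587). Its adjusted p was between 0.000697 and 0.0243 over all settings, but the fold or the p missed the limit in 9 of the 15, among them without B1 (adjusted p = 0.012), B14 (0.0106), JB97 (0.0243), JB84 (0.0143), JB87 (0.0122), or JB93 (0.0137). With Mcl1 higher and Bcl2l1 lower, the ratio of Bcl2l1 to Mcl1 was 0.0548 to 0.2 per kb in tumors, 0.314 to 0.538 in BNC lines, and 0.601 to 0.793 in NC lines.

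Of the 10 members 3 were thus called in tumors against lines, 2 higher (28.2% of all genes) and 1 lower (12%), while 40.2% of all genes were called. At an adjusted p under 0.05 there were 6 of 10 members and 61.1% of all genes, with 4 higher (38.7%) and 2 lower (22.3%). The ranges of tumors and lines did not overlap for 2 members (Mcl1 and Bmf, both higher) and for 27% of all genes (17% higher). In edgeR Bcl2l11, Bad, and Bak1 passed only the looser limit. DESeq2 called Bcl2l11 (1.22, adjusted p = 0.0063) with Mcl1 and Bmf, and it did not call Bcl2l1 (-1, adjusted p = 0.00378). Bcl2l11 was at 17.7 to 101 CPM in tumors (log2 fold change 1.15, edgeR adjusted p = 0.0271), and the highest values were 101 CPM in B28 and 92.0 in B27. Its adjusted p was under 0.05 in 10 of the 15 settings, and 0.0537 without B27. Bad was at 17.8 to 46.0 CPM (0.59, edgeR adjusted p = 0.0258), and under 0.05 in 8 of the 15 settings, with 0.0561 without B2. Bak1 fell to 30.6 to 91.6 CPM against 83.3 to 101 CPM in lines (-0.72, edgeR adjusted p = 0.0156), with an adjusted p of 0.0657 without B1 and B2.

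The other 4 members did not pass. Bid was at 7.99 to 50.7 CPM in tumors and 20.1 to 58.8 CPM in lines (-0.82, edgeR adjusted p = 0.0849), and without B14, its highest tumor, it was called (-1.18, adjusted p = 0.00627). Bcl2 was at 8.1 to 46.0 CPM (-0.22, edgeR adjusted p = 0.596), and without B28, its highest tumor, the value was -0.58 (adjusted p = 0.0486). Bcl2l2 was at 29.9 to 59.9 CPM (0.23, edgeR adjusted p = 0.278). Pmaip1 was at 7.9 to 29.2 CPM in tumors, between the BNC lines (5.3 to 14.6 CPM on this scale) and the NC lines (49.7 to 61.7 CPM) in 6 of the 8 tumors and within the BNC range in B1 and B28 (-0.04, edgeR adjusted p = 0.932). Its share of the BH3-only sum was 9.15% to 35.9% in tumors.

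**Figure D4:**
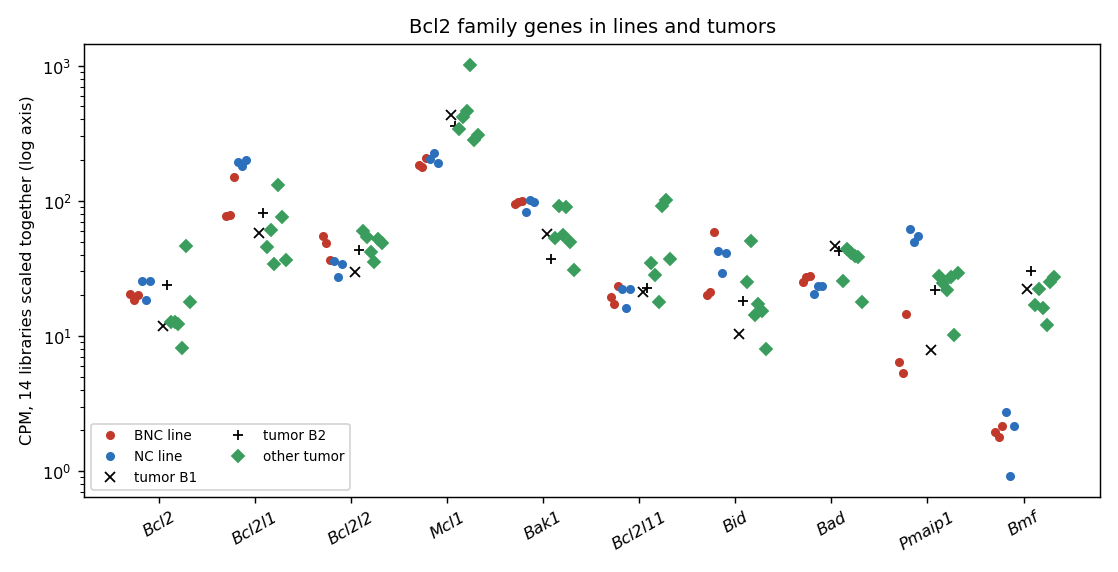
Level of the 10 genes in 6 lines and 8 tumors. The y axis is CPM on a log scale with all 14 libraries scaled together, circles are lines, and diamonds and crosses are tumors, with B1 and B2 marked because they stand apart in library content. Bmf is at 12 CPM or more in every tumor and 2.73 CPM or less in every line, and Mcl1 is at 282 CPM or more in every tumor and 226 CPM or less in every line.

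Per exon kb the order of the members in tumors began as in the lines, with Mcl1 (median 114 CPM per kb) and Bak1 (22.6), followed by Bad (15.8) and Bcl2l1 (13). Bmf, the lowest member in every line, was 8th in the tumors at 4.24, and Bcl2 was last at 1.38. Of the 53 other apoptosis genes tested, 15 were called higher (28.2% of all genes) and 6 lower (12%) in tumors, which is near the share of all genes. Bnip3 and Bnip3l were among the higher ones (log2 fold change 3.45 with edgeR adjusted p = 5.78e-06 and 1.25 with 8.12e-05), as were Birc3 (4.43, adjusted p = 0.000163) and Pim1 (2.19, adjusted p = 0.00503). Bcl2a1a, Bcl2a1b, and Bcl2a1d, near-identical copies of a protector gene of leukocytes whose reads can be split between them, were at 0 in every line and present in every tumor, at up to 22.2 CPM for Bcl2a1b. They were chosen after their values were seen. Usp9x was among the lower ones (-1.02, edgeR adjusted p = 0.000426).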

How the data were processed

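RNA sequencing counts of mouse mesothelioma lines and tumors were analysed. The table deposited by the authors gives raw counts, 1 whole number per gene and library, with nothing scaled. Per the study's methods they mapped poly-A-enriched single-end reads to mm10 with TopHat (TopHat2 2.0.12 in the submitters' processing notes), removed alignments that were nonprimary or of low quality, and counted with HTSeq. The strand setting is not given in the sources used here.

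The genotype of each of the 6 line columns comes from its line name, which a supplementary table pairs with BNC or NC. The 8 tumor columns carry B codes and no genotype, and were used as 1 group of tumors. B1, B27, and B45 were taken as tumors by the form of their codes alone. The other codes also head columns of the DNA values, whose samples are all labelled tumors. The labels list 9 tumor RNA samples, so 1 of them is not among these columns. One RNA column without such a code and the 14 columns of DNA values, 15 in all, were not used. Chromatin profiles were not analysed here.

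Counts were fitted over all genes in R 4.3.3 with edgeR 4.0.16 (filterByExpr with minimum count 10, TMM, glmQLFit, glmQLFTest), the 6 lines alone for BNC against NC, and 14 libraries in 3 groups for tumors against the mean of both line groups. Adjustment was by Benjamini-Hochberg over all genes tested. The standard error is the size of the log2 fold change divided by the square root of F. Alternatives were DESeq2 1.42.0, library size without TMM, other filters, lines or tumors left out, a replicate block, the prefix of the column heads as a covariate, and summed close pairs. Nothing in the labels says that lines came from separate mice, so p-values measure the spread between these lines. Levels between genes were divided by exon length (GENCODE M21). Likeness to Pmaip1 is Pearson's r of log2 CPM with a prior count of 2. On simulated counts of the comparison of lines, run on 12189 genes, edgeR called 33% of genes changed 4-fold and 85% of those changed 16-fold, and DESeq2 81% and 98%, with 1 and 47 calls among 11989 unchanged genes. In the comparison of tumors with lines, run on 15300 genes, edgeR called 58% and 89%. In both, changes were put only into genes with higher mean counts, and every library was drawn independently.

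The members, lists, and tests were chosen with earlier results of these data known. The genes named are the members, the targeted genes, the 2 genes with the smallest p in each other list with every gene called in the lines, and the 3 genes most like the member with the smallest p. Ddit3, Trp53, and the genes named from the tumor comparison were chosen after their values were seen. A result of the list of the apoptosome and executioners is not reported here.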

Additional observations from a re-analysis of the deposited data

Results flagged for a closer look

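In each of 3 members 1 tumor lay far from the other tumors, farther than the 95% limit of Dixon's test for 8 values. Mcl1 was at 1020 CPM in B27, and the next tumor was at 464 CPM. Bcl2 was at 46.0 CPM in B28, and the next tumor was at 23.8 CPM. Bid was at 50.7 CPM in B14, and the next tumor was at 25.0 CPM. The 10 members were tested this way in the 8 tumors, and about 1 in 20 groups is marked by chance alone.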

How the results depend on the processing

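For BNC against NC lines, the number of members called was 0 in edgeR as described above, 1 in DESeq2, 1 at an adjusted p under 0.05 without a fold limit, 0 to 2 when a line was left out in edgeR, and 1 to 2 when a line was left out in DESeq2. For the other apoptosis genes it was 0, 3, 6, 0 to 4, and 2 to 7 in the same order (5 without JB87 in DESeq2). Over all genes it was 136, 1825, 1761, 0 to 2574, and 1103 to 3751, with 83 at 10 or more counts in every library, 1 with the column prefix as a covariate, and 0 with the close pairs summed. The same replicate number did not pair lines (correlations of deviations between -0.08 and 0.1, with 2 of 6 lines correlating best with their own number). With a replicate block 0 members, 0 other apoptosis genes, and 0 genes in all were called, and Pmaip1 had a log2 fold change of -2.75 (edgeR adjusted p = 0.155), or -2.81 with JB97 as number 3 (adjusted p = 0.0431).

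For tumors against lines, the number of members called was 3 in edgeR as described above, 1 with library size only, 6 at an adjusted p under 0.05, and 1 to 2 when a line was left out. Mcl1, Bmf, and Bcl2l1 stayed under an adjusted p of 0.05 in all 15 settings.

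Some members that did not pass with all libraries kept changed sign between settings. In BNC against NC lines, Bak1 was at -0.11 with library size only, -0.05 without JB84, and -0.01 with the close pairs summed. Bcl2l11 was at 0.08 with the close pairs summed and with the replicate block, and at 0.06, 0.03, and 0.02 without JB91, JB84, or JB93 in edgeR and in DESeq2 (-0.17 and -0.18 without JB87), with a lowest value of -0.2 with library size only. Bid was at 0.13 with the close pairs summed, and without JB81 and JB91 in turn at 0.08 and 0.05 in edgeR and 0.08 and 0.06 in DESeq2. Without JB97 Bid was at -0.85 in both and passed, with an adjusted p of 0.0491 in edgeR and 0.00721 in DESeq2. Bmf, at 0 with all lines, was at 0.33 without JB84, 0.35 with the replicate block, -0.3 without JB87, and -0.16 with library size only. In tumors against lines, Pmaip1 was at 0.06 in DESeq2, 0.12 without B1 and without B1 and B2, -0.17 to 0.25 when a line was left out (0.25 without JB97), and 0.07 without B28. The cause was not tested. Of the 200 tested values of single members under other settings in the lines, 183 stayed on their side of an adjusted p of 0.05, as did 135 of 150 in the tumors. With 3 lines a group, edgeR called 33% of simulated 4-fold changes, so a difference of that size or smaller could go undetected. Leaving out a line in DESeq2 and comparing only some lines were chosen after seeing the data, as were all settings for tumors against lines other than library size only and DESeq2.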
